A study of Mus musculus with 11 samples.

Results

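The genes described here are Crabp2, which encodes an intracellular binding protein for retinoic acid, and 8 other genes of retinoic acid handling: Crabp1, Stra6, Aldh1a1, Aldh1a2, Rara, Rarb, Rarg and Rxra. They are 9 of the 24490 genes counted. Crabp2 was chosen by its read counts, which were lower in cells given siRNA against Akt1 than in control cells, so its values in that comparison are given as a description, with no test. The other 8 were chosen as members of its pathway.

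RNA-seq was made from primary granulosa cells of RjOrl:SWISS mice, the somatic cells that surround the oocyte in the ovarian follicle. Every culture received 30 pmol of siRNA by lipofection with Lipofectamine RNAiMax, the transfection mix was taken off at 5 h, and RNA was collected at 30 h. The 3 control libraries, called scramble, came from cells given a nontargeting siRNA. The other 8 came from cells given 1 of 4 pools of siRNAs against Akt1, a serine/threonine kinase downstream of PI3K, with 2 libraries per pool. A pool held 3 of 4 Akt1 siRNAs: pools 1 to 4 left out siRNA 9, 7, 8 and 6 in that order, if the pool numbers of the protocol and of the sample titles are the same. The labels name no untransfected cells and no agent given to all cells beside the siRNA and its carrier. Whether replicates came from separate cultures is not stated, and the spread that the p-values rest on may be technical.

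Retinoic acid is made inside cells from vitamin A. Retinol enters from its plasma carrier, with STRA6 as a membrane receptor, alcohol and retinol dehydrogenases turn it into retinaldehyde, and the ALDH1A enzymes turn retinaldehyde into retinoic acid. CRABP2 carries retinoic acid to the nucleus, where retinoic acid receptors (RARs), paired with retinoid X receptors (RXRs), switch on target genes, while CYP26 enzymes break it down. In the ovary retinoic acid is best known for starting meiosis in fetal germ cells, and granulosa cells can make it.

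The siRNA target followed the labels. Akt1 was at 529, 428 and 399 CPM (counts-per-million of all gene reads) in scramble replicates 1, 2 and 3, and the 8 pool libraries ranged from 52.7 to 81.7 CPM. Its mean in pools 1 to 4 was 13.6%, 11.9%, 17.8% and 13.0% of the scramble mean. Depth was 23851293 to 32643158 gene reads per library. Scramble replicate 1 stood apart: its median correlation of log2 CPM with the other libraries was 0.948, against at least 0.989 for each of the others, and relative to the other scramble libraries genes with short transcripts lay higher in it (median log2 difference 0.75 in the shortest of 5 length classes) and those with long ones lower (−0.82 in the longest). Each comparison is therefore given with it and without it. Of 10 granulosa markers 8 had a median above 1 CPM (Fshr and Amh did not), and the sum of the list was 3102 to 4088 CPM in scramble and 1940 to 2993 CPM in the pools. That sum rests largely on Inha, at 1241 to 3486 CPM over the 11 libraries (median 1824). The next highest granulosa marker, Inhba, had a median of 359 CPM. Cyp17a1 and Insl3, which define theca cells, and the immune markers Ptprc, Adgre1 and C1qa were below 1 CPM. The other 3 of 6 immune markers were above it (Cd68, Csf1r and Lyz2, medians 3.89, 1.99 and 1.04 CPM), and that list summed to 5.31 to 8.73 CPM in scramble and 5.81 to 9.87 CPM in the pools. Of 8 theca and stroma markers 6 were above 1 CPM, and they summed to 3426 to 4453 CPM in scramble and 2470 to 3651 CPM in the pools. Of 8 surface epithelium markers 7 were above it, and they summed to 677 CPM in scramble replicate 1, 365 and 383 CPM in the other scramble libraries and 361 to 421 CPM in the pools. The part of these shifts in the results below was not tested. In bulk RNA, fewer cells of a type and less RNA per cell cannot be told apart.

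Per kilobase of exon (RPKM, which is the CPM divided by the exon length in kilobases), Aldh1a1 was the most abundant of the 9 genes, at 565 to 901 RPKM over the 11 libraries. Crabp2 followed at 54.0 to 220 RPKM. The receptors Rxra (7.67 to 10.4 RPKM), Rara (6.51 to 9.61 RPKM) and Rarg (7.64 to 9.59 RPKM) came next, with ranges that overlapped, so no order among them can be read. Stra6 was at 2.51 to 5.06 RPKM. Aldh1a2 (1.33 to 2.33 RPKM) and Rarb (1.42 to 2.12 RPKM) overlapped each other and lay below Stra6. Crabp1, the other retinoic acid binding protein, gave 0 to 2 reads per library, below the 3 reads taken as the floor (0.0919 to 0.126 CPM), and no fold is given for it. The 8 remaining genes passed the filter on low counts.

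**Figure D1:**
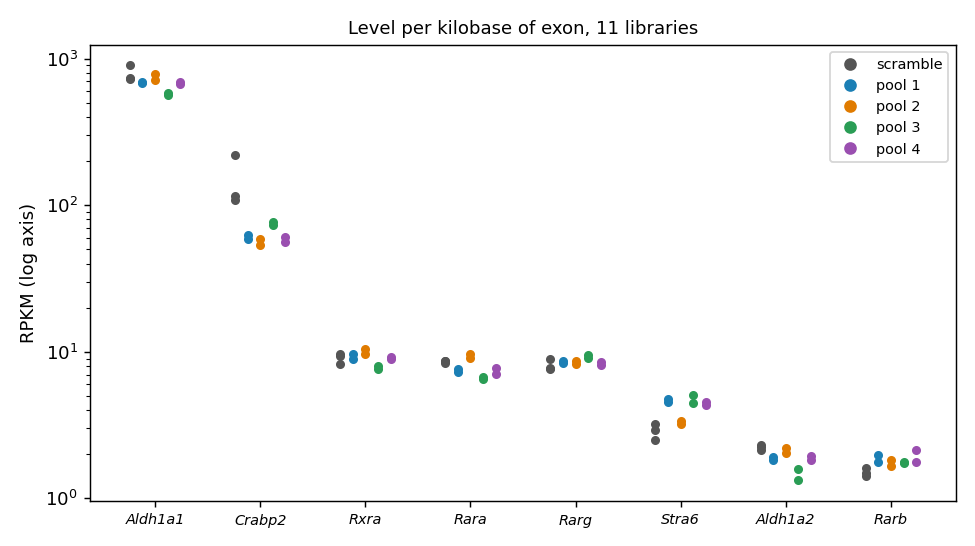
RPKM (CPM per kilobase of exon, log axis) of the 8 genes above the floor, 1 point per library, coloured by group. Aldh1a1 and Crabp2 lie above all others in every library, and the ranges of Rxra, Rara and Rarg overlap.

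Crabp2 (ENSMUSG00000004885.5, GRCm38 chromosome 3, 87948666 to 87953376, plus strand, 4 exon blocks and 1322 exon bases) was at 291, 145 and 154 CPM in scramble replicates 1, 2 and 3. It was at 83.5 and 77.5 CPM in pool 1, 71.3 and 77.6 CPM in pool 2, 96.6 and 101 CPM in pool 3, and 74.5 and 80.0 CPM in pool 4. All 8 pool libraries lay below all 3 scramble libraries, and both pool 3 libraries lay above the other 6 pool libraries. The means were 40.9%, 37.8%, 50.3% and 39.3% of the scramble mean in pools 1 to 4. Against scramble replicates 2 and 3 alone they were 53.9%, 49.8%, 66.2% and 51.8%, because scramble replicate 1 was 0.92 log2 units above those libraries. Crabp2 has a short transcript, in the length class that was raised in scramble replicate 1, and the size of its difference moves with that library: the log2 fold change of all pools against scramble was −1.29 ± 0.17 (SE; 8 against 3 libraries) with it and −0.91 ± 0.10 without it. In the authors' deposited table the log2 fold change of Crabp2 was −1.11 with an SE of 0.17.

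Differences among the pools had no part in the choice of Crabp2 and were tested with edgeR's quasi-likelihood test, with p-values adjusted by Benjamini-Hochberg over all genes. With all libraries the comparison of all 4 pools with each other gave Crabp2 an adjusted p of 1, and without scramble replicate 1, where the estimated spread was smaller, it gave 4.91e-05. Leaving out that library changed nothing in the pool libraries themselves. None of the other 7 genes was called in that test with all libraries (5 had an unadjusted p below 0.05, and DESeq2 called Aldh1a1 and Rara), and 5 were without scramble replicate 1: Stra6, Rara, Rxra, Aldh1a1 and Aldh1a2. The background of that test was 2.46% of 14144 genes called at an adjusted p below 0.05 with all libraries and 42.8% of 14062 without scramble replicate 1. By group mean, pool 3 was the highest of the 4 pools for both Crabp2 and Akt1, and pool 2 the lowest for both. The pool 2 libraries overlapped those of pools 1 and 4 for Crabp2, and those of pool 4 for Akt1. In the test among pools Akt1 was not called with all libraries (edgeR adjusted p = 0.239), but was without scramble replicate 1 (1.26e-06). A link between the levels of Crabp2 and Akt1 was not tested.

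**Figure D2:**
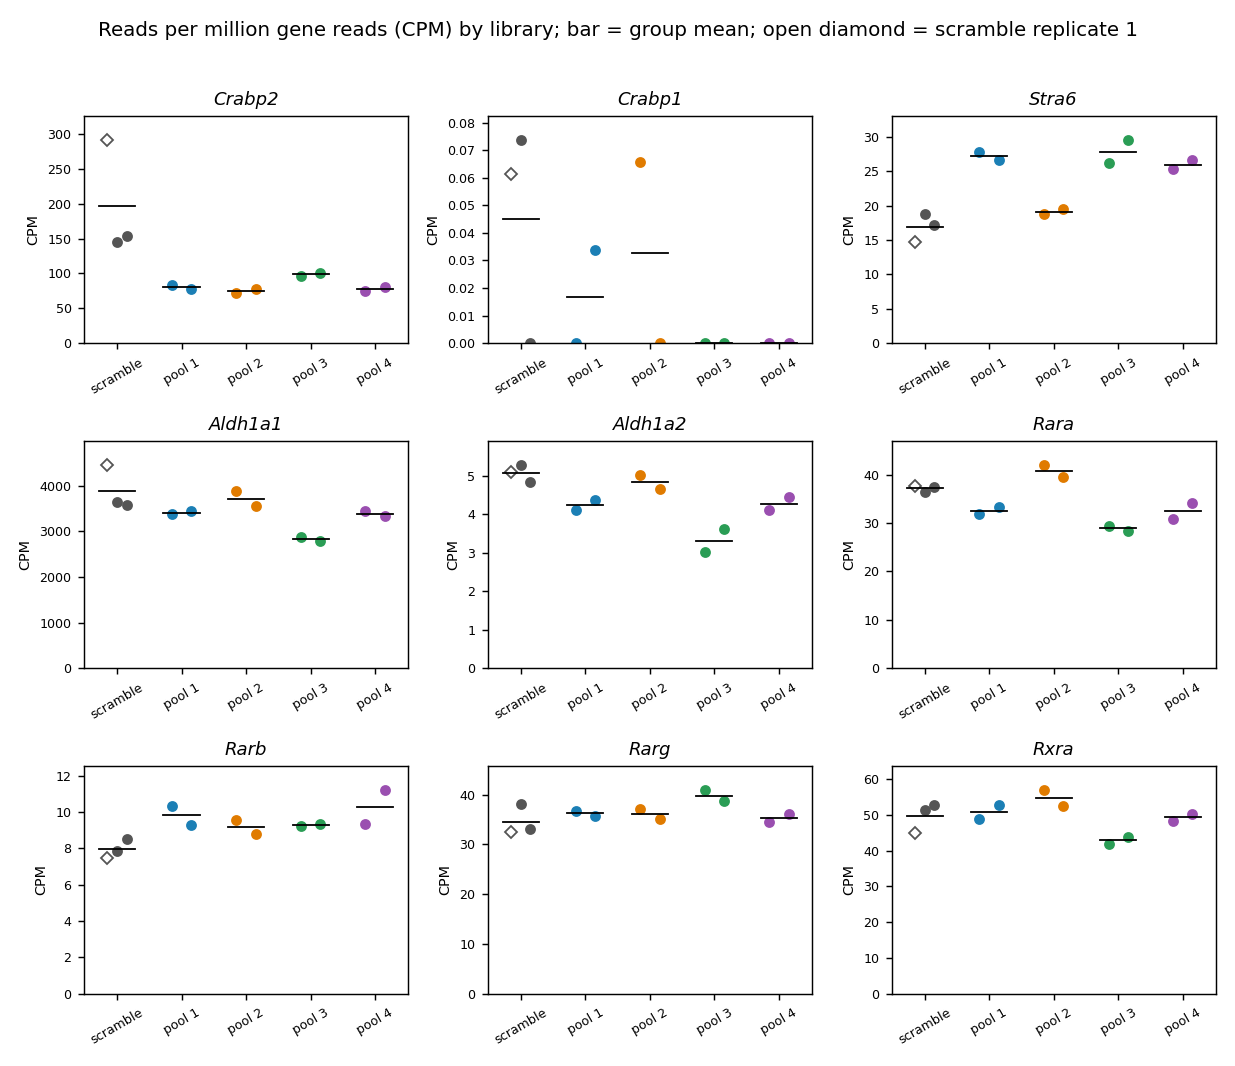
CPM of each of the 9 genes by library, with group means as bars and scramble replicate 1 as an open diamond; each axis starts at 0. Crabp2 is below scramble in all 8 pool libraries (71.3 to 101 CPM), Stra6, Aldh1a1, Aldh1a2 and Rara in pool 2 lie apart from the other pools, and Crabp1 is at 0 to 2 reads.

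The 7 other genes that passed the filter were tested against scramble in the same way. None was called when all pools were set against scramble, with or without scramble replicate 1. The background was 0.00707% of genes (1 gene, Akt1) with all libraries, where 4041 genes had an unadjusted p below 0.05, and 0.469% without scramble replicate 1. Of the 7 genes, 2 had an unadjusted edgeR p below 0.05 with all libraries and 1 without scramble replicate 1, and DESeq2 called 1 (Stra6) and none. Pool 3 gave 4 calls among the 7 genes, against a background of 11.2%: Stra6 rose, and Rara, Aldh1a1 and Aldh1a2 fell. Pool 1 gave 1 call, Stra6 (background 1.93%). Pool 2 gave none (background 0.00707%), with 0 at an unadjusted p below 0.05 and 0 by DESeq2, and pool 4 gave none (background 2.57%), with 3 at an unadjusted p below 0.05 and 1, Stra6, by DESeq2. Without scramble replicate 1 pool 1 had 3 calls (Stra6, Rara and Aldh1a1; background 28.8%), pool 2 had none (background 4.39%, 0 at an unadjusted p below 0.05 and 0 by DESeq2), pool 3 had 5 (the same 4 and Rxra; background 48.8%) and pool 4 had 3 (Stra6, Rara and Aldh1a1; background 31%). The median log2 fold change of the 7 genes in pool 3 was −0.28, beside −0.02 over all genes tested. All of these comparisons use the same scramble libraries. Here and below, statements that libraries lay above or below every scramble library are descriptions. How many of all genes do the same was not counted.

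**Figure D3:**
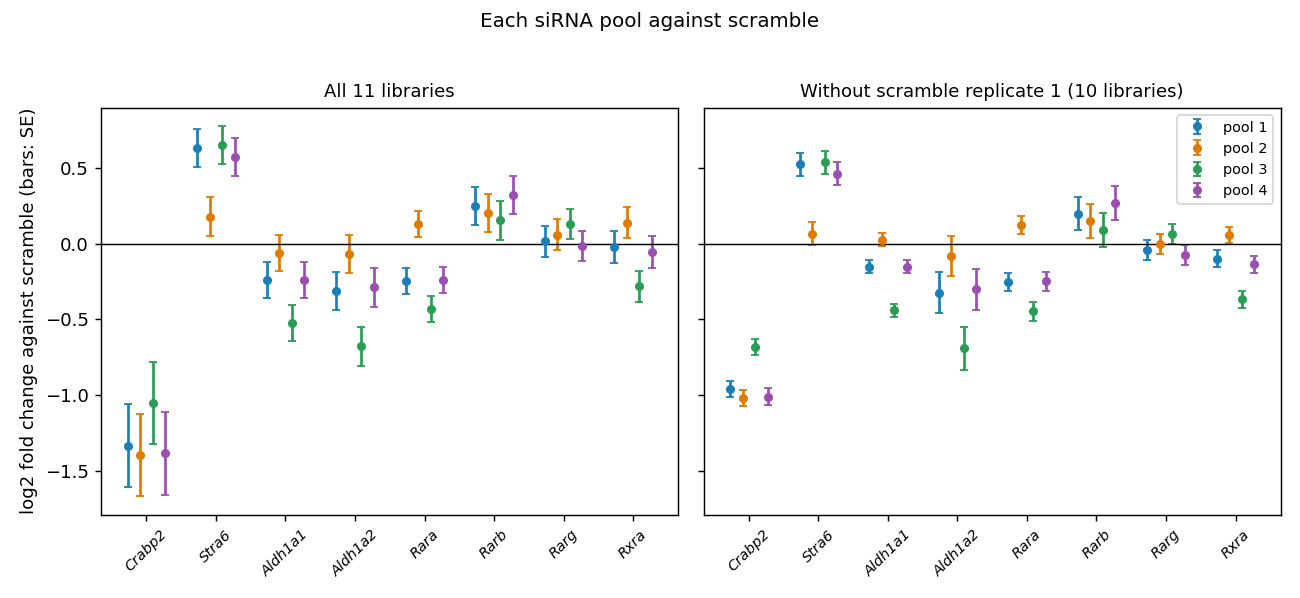
Log2 fold change of each pool against scramble (points, with the SE as bars) for the 8 genes that passed the filter, with all 11 libraries on the left and without scramble replicate 1 on the right. Stra6 is above 0 in pools 1, 3 and 4, Aldh1a1, Aldh1a2 and Rara are lowest in pool 3, and pool 2 is nearest to 0 or above it for these 4 genes.

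Stra6, the retinol receptor (chromosome 9, 58063788 to 58153996), was at 14.6, 18.8 and 17.2 CPM in scramble replicates 1, 2 and 3. It was at 27.8 and 26.6 CPM in pool 1, 26.1 and 29.5 CPM in pool 3, and 25.3 and 26.6 CPM in pool 4, but at 18.7 and 19.5 CPM in pool 2. Pools 1, 3 and 4 lay above every scramble library, and pool 2 overlapped scramble. Stra6 rose in pool 3 by a log2 fold change of 0.65 (edgeR adjusted p = 0.0151) and in pool 1 by 0.63 ± 0.13 (SE, adjusted p = 0.0479), and was 0.57 higher in pool 4 (adjusted p = 0.0607) and 0.18 higher in pool 2 (adjusted p = 0.611). Without scramble replicate 1 the values were 0.53, 0.07, 0.54 and 0.46 in pools 1 to 4, with adjusted p of 1.42e-05, 0.744, 4.38e-06 and 7.73e-05. The pool 1 call was lost without any 1 of the other 10 libraries (adjusted p 0.0573 to 0.386), and the pool 3 call without pool 3 replicate 1 (0.0822) or replicate 2 (0.148). For all pools together the edgeR adjusted p was 0.108, while the authors' deposited table gives an adjusted p of 0.0164, in a table where 9.72% of 10136 genes with an adjusted p were below 0.05.

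The ALDH1A enzymes make the last step of retinoic acid synthesis. Aldh1a1 (chromosome 19, 20492715 to 20643465) was at 4450, 3644 and 3570 CPM in scramble replicates 1 to 3. It was at 3370 and 3442 CPM in pool 1, 3881 and 3557 CPM in pool 2, 2872 and 2789 CPM in pool 3, and 3453 and 3330 CPM in pool 4. Both pool 3 libraries lay below all 9 others, and pool 2 overlapped scramble. In pool 3 Aldh1a1 fell by 0.52 ± 0.12 on the log2 scale (SE, edgeR adjusted p = 0.0282), and without scramble replicate 1 by 0.44 ± 0.04 (adjusted p = 3.65e-08). With all scramble libraries kept, that call was lost without any 1 of the 8 pool libraries (adjusted p 0.0580 to 0.202). In pools 1 and 4 the log2 fold changes were −0.24 and −0.24 (adjusted p = 0.396 and 0.367), and −0.15 and −0.15 (0.0119 and 0.0111) without scramble replicate 1. Aldh1a1 shares 50 of its 4934 windows of 75 bases (1.01%) with its paralog Aldh1a7, which was at 14.2 to 33.8 CPM, so few reads could be assigned to the wrong copy.

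Aldh1a2 (chromosome 9, 71215789 to 71296243), the enzyme that makes most retinoic acid in the embryo, was at a far lower level. Its values were 5.09, 5.27 and 4.82 CPM in scramble, 4.11 and 4.35 CPM in pool 1, 5.02 and 4.65 CPM in pool 2, 3.01 and 3.60 CPM in pool 3, and 4.11 and 4.44 CPM in pool 4. Pools 1, 3 and 4 lay below every scramble library, pool 3 lay below all other libraries, and pool 2 overlapped scramble. In pool 3 it fell by 0.68 ± 0.13 on the log2 scale (SE, edgeR adjusted p = 0.0142), and without scramble replicate 1 by 0.69 ± 0.14 (adjusted p = 0.000392). The call was lost without pool 3 replicate 1 (adjusted p = 0.162) or replicate 2 (0.0603).

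Of the receptors, Rara (RAR alpha, chromosome 11, 98927818 to 98974942) was at 37.6, 36.4 and 37.5 CPM in scramble. It was at 31.8 and 33.3 CPM in pool 1, 42.0 and 39.5 CPM in pool 2, 29.4 and 28.4 CPM in pool 3, and 30.9 and 34.1 CPM in pool 4. Pool 2 lay above the scramble libraries and pools 1, 3 and 4 lay below them, with no overlap. Rara fell in pool 3 by 0.43 ± 0.09 on the log2 scale (SE, edgeR adjusted p = 0.0165), a call lost without pool 3 replicate 1 (adjusted p = 0.133) or replicate 2 (0.159). The log2 fold changes in pools 1, 2 and 4 were −0.25, 0.13 and −0.24 (adjusted p = 0.220, 0.611 and 0.213). Without scramble replicate 1 they were −0.25, 0.12 and −0.25 (0.00378, 0.319 and 0.00456), beside −0.45 (5.48e-06) in pool 3.

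Rxra (RXR alpha, the common partner of RARs, chromosome 2, 27676440 to 27762957) was at 45.1, 51.3 and 52.8 CPM in scramble and at 41.9 and 43.9 CPM in pool 3, where both libraries lay below all others. The other pools were at 48.5 to 57.0 CPM and overlapped scramble. Its log2 fold change in pool 3 was −0.28 ± 0.11 (SE, edgeR adjusted p = 0.130), and without scramble replicate 1 it fell by 0.37 ± 0.06 (adjusted p = 1.72e-05). Rarg (RAR gamma, chromosome 15, 102234938 to 102257517) was at 32.5, 38.1 and 33.1 CPM in scramble and at 34.5 to 40.8 CPM in the pools, a log2 fold change of 0.05 ± 0.08 for all pools (SE, adjusted p = 0.670) and −0.01 ± 0.06 without scramble replicate 1 (0.940). Pool 3, at 40.8 and 38.6 CPM, lay above every other library for Rarg but was not called in either fit.

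Rarb (RAR beta, chromosome 14, 16430839 to 16819156, minus strand) is itself a target of retinoic acid. Its known response element, a direct repeat of RAR half-sites with a spacer of 5 bases, lies just before one of its start sites. It is shown beside the same kind of repeat in Cyp26a1, a retinoic acid breakdown enzyme that had 2 to 5 reads per library. Whether the level of Rarb follows retinoic acid in these cells was not tested. Sequences are from RefSeq (GRCm38.p6), each 5′ to 3′ in the direction in which the repeat reads, with the half-sites in capitals. The Rarb match is in the window chr14:16575427-16575726 on the gene's strand, and the Cyp26a1 match in chr19:37697558-37697857 on the opposite strand.
Rarb: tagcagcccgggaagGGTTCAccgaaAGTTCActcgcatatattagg
Cyp26a1: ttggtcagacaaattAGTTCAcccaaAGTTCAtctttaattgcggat

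The search took AGGTCA, the consensus half-site, and its relatives AGTTCA (as in both matches shown), GGTTCA (as in the Rarb match) and, last, GGGTCA as direct repeats with a spacer of 1, 2 or 5 bases, on both strands, from 250 bases before to 50 after each start. A spacer of 5 was found in 0.0974% of 32851 such windows, a spacer of 1 in 0.222% and a spacer of 2 in 0.268%. Of the 9 genes 8 had an entry, with 17 windows in all, and Crabp2 had none. Rarb held the one match among them. A match is a run of letters, not evidence of binding.

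Rarb was at 7.47, 7.85 and 8.51 CPM in scramble. It was at 10.3 and 9.28 CPM in pool 1, 9.55 and 8.77 CPM in pool 2, 9.23 and 9.31 CPM in pool 3, and 9.31 and 11.2 CPM in pool 4. All 8 pool libraries lay above all 3 scramble libraries, but the log2 fold change of 0.23 ± 0.10 (SE) was not called (edgeR adjusted p = 0.150), nor was 0.18 ± 0.09 without scramble replicate 1 (0.288). Among the other retinoid genes read below, Rdh10, Rdh13, Elavl1, Ncoa2, Med1, Meis1, Meis2 and Btg2 also lay above scramble in all 8 pool libraries. Adh1 and Ccnd3 lay below it in all 8. For Rarb the test among pools gave adjusted p = 1, and 0.532 without scramble replicate 1. Rarb shares 1793 exon bases with Top2b on the opposite strand. Top2b was at 129 to 247 CPM in scramble and 229 to 261 CPM in the pools, and whether the authors counted by strand is not given in the sources used here, so Rarb reads are uncertain.

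Pool 2 stood apart from the other pools for several of these genes, and its difference from the mean of pools 1, 3 and 4 was tested. The difference is taken between pools, while the spread comes from a fit that holds the scramble libraries too. The comparison was added after pool 2 was seen to stand apart, so its p-values are not independent of that observation. Pool 2 was the only pool without siRNA 7, if the pool numbers of protocol and titles are the same. It also had the lowest mean of Akt1. Whether its differences from the other pools go with siRNA 7 or with the level of Akt1 was not tested. With all libraries 1 of the 7 genes was called: Rara was higher in pool 2 by 0.44 ± 0.07 on the log2 scale (SE, edgeR adjusted p = 0.0133; background 5.25%). The call was lost without pool 1 replicate 1 (adjusted p = 0.0541), pool 2 replicate 1 (0.212), pool 2 replicate 2 (0.133), pool 3 replicate 2 (0.0536) or pool 4 replicate 1 (0.0529). Stra6 was 0.44 ± 0.12 lower in pool 2 (log2 difference −0.44, adjusted p = 0.0748), and Aldh1a1, Aldh1a2 and Rxra were at 0.27, 0.36 and 0.26 (0.215, 0.121 and 0.178). With scramble replicate 1 left out of the fit, 5 of the 7 genes were called against a background of 43.7%: Rara (adjusted p = 2.37e-07), Aldh1a1 (1.62e-06), Rxra (6.68e-05) and Aldh1a2 (0.0110) were higher in pool 2, and Stra6 (4.23e-06) was lower. Crabp2 itself was at −0.14 ± 0.24 (adjusted p = 0.924) in pool 2 relative to the other pools, and at −0.14 ± 0.04 (0.0175) without scramble replicate 1. Set side by side in pool 2, Crabp2 was at 37.8% of the scramble mean and Stra6 at 113%, while in pools 1, 3 and 4 Crabp2 was at 40.9%, 50.3% and 39.3% and Stra6 at 161%, 165% and 154%.

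The rest of the pathway was read from 8 lists that hold 70 genes beside Crabp2, of which 54 passed the filter with all libraries. None of the 54 was called by edgeR for all pools against scramble, with 16 at an unadjusted p below 0.05 and 5 called by DESeq2 (Adh1, Btg2, Ccnd3, Stra6 and Tbl1xr1). In pool 3, 14 of 54 (25.9%) were called, 8 up and 6 down, beside 11.2% of all genes, and the median log2 fold change of the 54 was 0.11. Pool 1 had 3 calls (5.56%), all up, beside 1.93% of all genes, pool 4 had 2 (3.7%), both up, beside 2.57%, and pool 2 had none, beside 0.00707%, with 3 at an unadjusted p below 0.05 and 1, Btg2, by DESeq2. Without scramble replicate 1 the lists had 34 calls of 53 in pool 3 (64.2%, 17 up and 17 down), beside 48.8% of all genes, and for pools 1, 2 and 4 they had 23 (43.4%), 6 (11.3%) and 25 (47.2%), beside 28.8%, 4.39% and 31%.

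Among the 3 genes of retinoic acid breakdown, Cyp26b1 alone passed the filter. CYP26B1 clears retinoic acid. It was at 129, 233 and 205 CPM in scramble replicates 1 to 3, 116 and 116 CPM in pool 1, 168 and 169 CPM in pool 2, 95.5 and 94.2 CPM in pool 3, and 123 and 116 CPM in pool 4. Pools 1, 3 and 4 lay below every scramble library, and scramble replicate 1 was lower than the other scramble libraries, the opposite of Crabp2. Cyp26b1 fell in pool 3 by 1.07 ± 0.22 on the log2 scale (SE, edgeR adjusted p = 0.0208), a call lost without pool 3 replicate 1 (adjusted p = 0.163) or replicate 2 (0.155). The log2 fold changes in pools 1, 2 and 4 were −0.76, −0.17 and −0.71 (adjusted p = 0.152, 0.668 and 0.159). In the fit without scramble replicate 1 it fell in all 4 pools, by 0.98, 0.39, 1.30 and 0.94 on the log2 scale (adjusted p = 4.29e-12, 3.87e-05, 2.72e-14 and 9.22e-12), and was 0.68 ± 0.04 higher in pool 2 than in the mean of the other pools (1.33e-11).

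Of the 15 genes that convert retinol and retinaldehyde, 14 were tested and 4 were called in pool 3, beside 11.2% of all genes. The same list had 5, 3, 8 and 6 calls without scramble replicate 1 in pools 1 to 4 (backgrounds as above). Adh1, an alcohol dehydrogenase that oxidises retinol, was at 122, 72.4 and 71.9 CPM in scramble and 36.7 and 38.1 CPM in pool 3, with the other pools at 47.3 to 58.7 CPM, all below scramble. It fell in pool 3 by 1.31 ± 0.22 on the log2 scale (SE, edgeR adjusted p = 0.00825) and by 1.04 without scramble replicate 1. The call was lost without pool 3 replicate 1 (adjusted p = 0.101) or replicate 2 (0.0814). Adh7, another retinol-oxidising alcohol dehydrogenase, and the retinol dehydrogenase Rdh5 rose in pool 3, by log2 fold changes of 0.80 (adjusted p = 0.0400) and 1.04 (0.0103), and both were lower in pool 2 than in the mean of the other pools (−0.87, adjusted p = 0.0421, and −0.76, 0.0488). These calls of Adh7, and that of Rdh5 for pool 2, were each lost without scramble replicate 2 or any 1 pool library (adjusted p 0.0622 to 0.432), and that of Rdh5 in pool 3 without either pool 3 library (0.0579 and 0.112). Rdh1 also rose in pool 3 (2.17 ± 0.50, adjusted p = 0.0277; lost without scramble replicate 2 or any 1 pool library, 0.0548 to 0.184) but was at 0.0306 to 0.698 CPM. Rdh5 was at 1.13 to 3.42 CPM and Adh7 at 2.44 to 6.58 CPM, so these enzymes were rare beside Adh1. Rdh11, the member with the highest level among those uncalled with all libraries, was at 44.0 to 62.2 CPM, and with scramble replicate 1 left out it fell, by 0.21 on the log2 scale in pool 2 (edgeR adjusted p = 0.0283), 0.25 in pool 3 (0.000769) and 0.18 in pool 4 (0.0143).

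The list of carriers and partners of CRABP2 held 5 genes, 4 of them tested. Elavl1, which encodes the RNA-binding protein HuR, a binding partner of CRABP2, was at 138 to 147 CPM in scramble and rose in pool 3 (215 and 202 CPM) by a log2 fold change of 0.48 ± 0.08 (SE, edgeR adjusted p = 0.00837), a call lost without pool 3 replicate 1 (adjusted p = 0.119) or replicate 2 (0.0654). The other pools also lay above scramble, with 175 to 180 CPM in pools 1 and 4 and 155 and 149 CPM in pool 2. Without scramble replicate 1 edgeR called Elavl1 up in pools 1, 3 and 4 (backgrounds as above). With all libraries DESeq2 called it in pools 1, 3 and 4 as well. Ccnd3, a D-type cyclin that binds CRABP2, was at 180, 125 and 111 CPM in scramble and 85.9 to 106 CPM in the pools, below every scramble library, with a log2 fold change of −0.53 for all pools (adjusted p = 0.108) and −0.32 without scramble replicate 1 (0.111). By pool it was called in that second fit in pools 1, 3 and 4 (−0.28, −0.44 and −0.37). Fabp5, which carries retinoic acid towards PPAR delta, was at 17.1, 8.07 and 8.85 CPM in scramble and 8.67 to 13.1 CPM in the pools. Its log2 fold change for all pools was −0.16 (adjusted p = 0.597) and, without scramble replicate 1, 0.24 (0.336), so its sign turned with that library. In pool 3 it rose by 0.53 (edgeR adjusted p = 9.39e-05) once that library was left out.

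Of 11 receptor coregulators, all tested, 1 was called in each of pools 1, 3 and 4 with all libraries (backgrounds as above): Tbl1xr1, a subunit of the NCOR corepressor complex. It was at 27.7, 37.0 and 40.5 CPM in scramble, 61.3 and 63.1 CPM in pool 1, 41.8 and 40.0 CPM in pool 2, 77.8 and 79.2 CPM in pool 3, and 64.8 and 60.8 CPM in pool 4. It rose in pools 1, 3 and 4 by log2 fold changes of 0.77, 1.09 and 0.79 (edgeR adjusted p = 0.0472, 0.00399 and 0.0369), and pool 2 was lower than the mean of the other pools (−0.67, adjusted p = 0.0346). The calls in pools 1 and 4 and for pool 2 were each lost without any 1 of scramble replicate 2 and the 8 pool libraries (adjusted p 0.0531 to 0.414). The pool 3 call was lost without pool 3 replicate 1 (0.0517). With all libraries no other coregulator was called. With scramble replicate 1 left out, 28.8%, 4.39%, 48.8% and 31% of all genes were called in pools 1 to 4. The list then had 6, 1, 9 and 7 calls of 11 in that order, of which 2, 1, 3 and 2 were up. Those up were Ncoa2 in all 4 pools, Tbl1xr1 in pools 1, 3 and 4, and Med1 in pool 3. Of the calls that were down, the corepressor Ncor1 fell in pools 1, 3 and 4 (log2 fold changes −0.18, −0.29 and −0.21, edgeR adjusted p = 0.00239, 5.34e-06 and 0.000645) and the coregulator Nrip1 fell in pool 3 (−0.23, 0.00291). Both have long transcripts. Nrip1 was at 3.00 CPM in scramble replicate 1 and 57.6 to 69.1 CPM in the other 10 libraries.

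The list of 25 genes known to be induced by retinoic acid had 19 tested members, Crabp2, Stra6, Rarb and Cyp26b1 among them, and they did not move one way. In pool 3 Stra6, Btg2 and Bhlhe40 rose, and Cyp26b1 and Tgm2 fell, beside the lower Crabp2 (background 11.2%). When scramble replicate 1 was left out, the list had 8, 4, 9 and 7 calls of 19 in pools 1 to 4. The backgrounds were 28.8%, 4.39%, 48.8% and 31% in that order. Crabp2 is among the calls in each pool. It was chosen for its lower counts there, so its calls are no test. Bhlhe40, a circadian transcription repressor, rose in pool 3 by 0.47 with all libraries (edgeR adjusted p = 0.0300), a call lost without scramble replicate 3 or any 1 pool library (0.0506 to 0.210). Btg2, an antiproliferative gene, was at 176 to 185 CPM in scramble and 209 to 309 CPM in the pools, above scramble in all 8 libraries, and rose in pools 1, 3 and 4 by log2 fold changes of 0.47, 0.70 and 0.65 (edgeR adjusted p = 0.0297, 0.00182 and 0.00730). Of these, the pool 3 call held without any 1 library, the pool 1 call was lost without any 1 library but scramble replicate 1 (adjusted p 0.0570 to 0.372), and the pool 4 call without either pool 4 library (0.0817 and 0.151). Tgm2, a transglutaminase, was at 233, 233 and 212 CPM in scramble, 236 and 228 CPM in pool 2 and 164 to 199 CPM in the other pools. It fell in pool 3 by 0.52 ± 0.09 on the log2 scale (SE, adjusted p = 0.00852; 0.103 and 0.101 without either pool 3 library) and was 0.42 ± 0.08 higher in pool 2 than in the mean of the other pools (0.0163), a call lost without pool 1 replicate 1 or any 1 library of pools 2, 3 and 4 (0.0549 to 0.221).

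**Figure D4:**
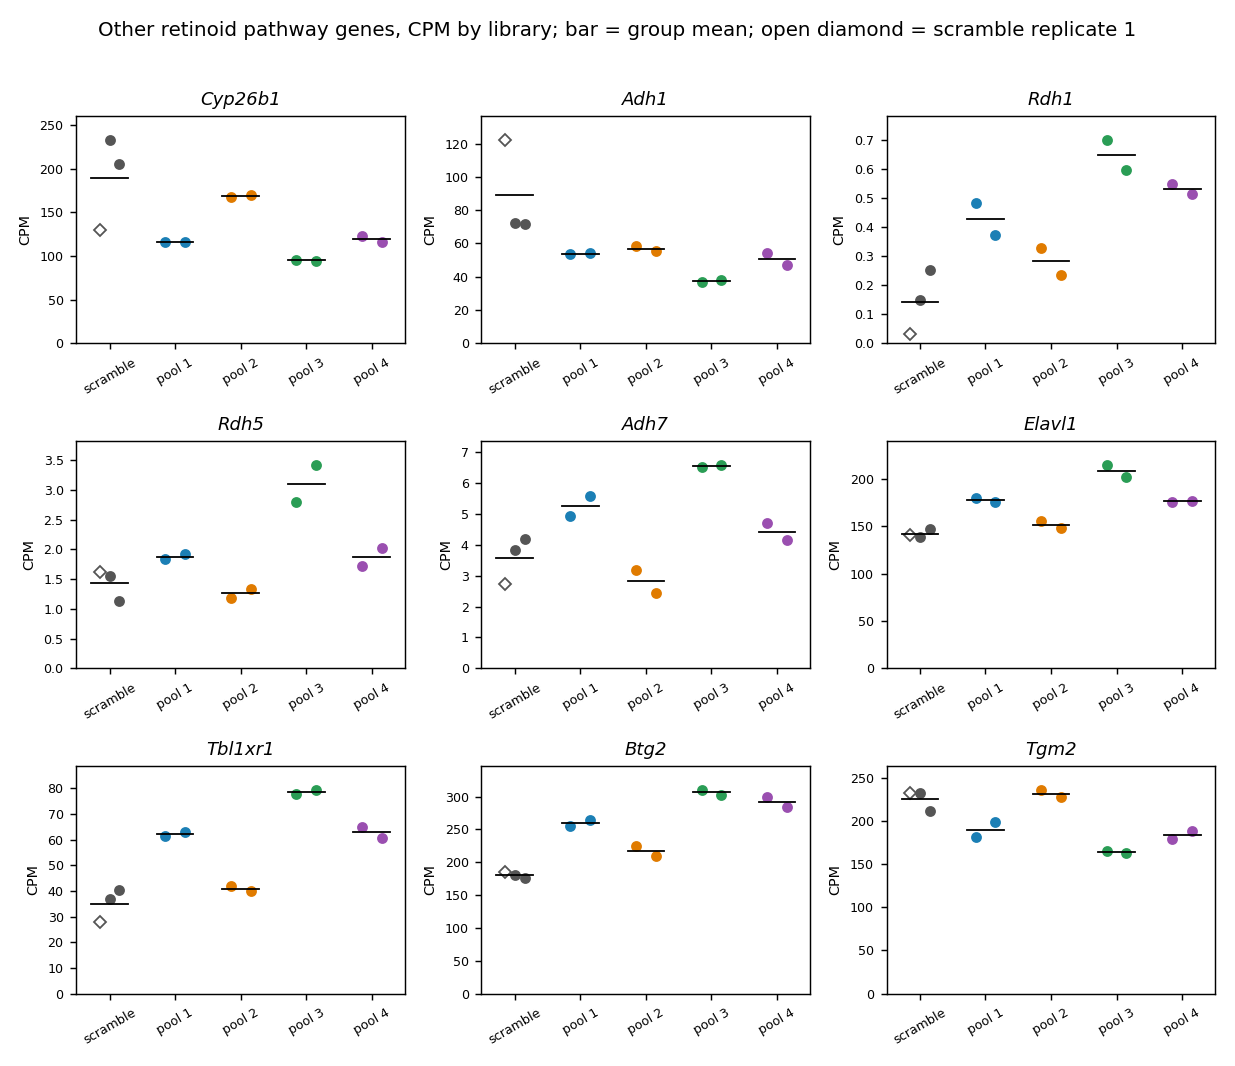
CPM by library of 9 other genes of the retinoid lists that were called in at least 1 comparison, with group means as bars and scramble replicate 1 as an open diamond; each axis starts at 0. By group mean pool 2 lies nearest to scramble for Tbl1xr1, Tgm2, Cyp26b1, Btg2, Elavl1, Adh1, Rdh1 and Rdh5. Btg2 is above scramble in all 8 pool libraries (209 to 309 CPM).

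The genes with profiles most like Crabp2 depended on scramble replicate 1. Likeness was the root mean square difference between log2 CPM profiles, each centred on its own mean, for genes whose average log2 CPM was 2 or more. Over 11 libraries the 5 nearest of 10714 genes were Bola3 (0.199), Eno3 (0.228), Znhit2 (0.270), Wnt4 (0.272) and Hacd1 (0.273). Over the other 10 libraries they were Polr3g (0.130), Lrp8 (0.149), Galnt16 (0.159), Abcb1b (0.162) and Atp2a2 (0.172). The first 5 shared no gene and the first 30 shared 4. Polr3g, a subunit of RNA polymerase III, was at 24.2 and 29.1 CPM in scramble replicates 2 and 3, at 12.6 to 14.8 CPM in pools 1, 2 and 4, and at 21.5 and 20.4 CPM in pool 3.

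**Figure D5:**
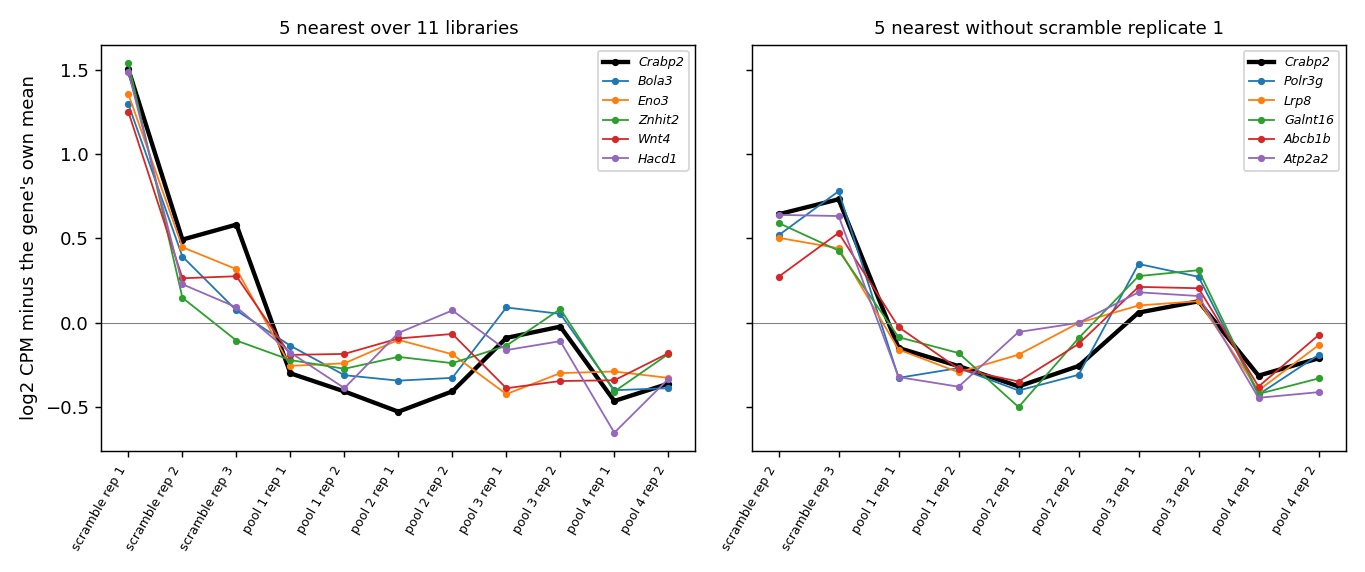
Log2 CPM minus each gene's own mean, by library, for Crabp2 (thick black) and its 5 nearest genes over 11 libraries (left) and without scramble replicate 1 (right). On the left the shared peak is scramble replicate 1. On the right Crabp2 and its nearest genes are highest in scramble replicates 2 and 3, with pool 3 above pools 1 and 4.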

How the data were processed

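RNA-seq of 11 libraries was analysed. Per the labels' protocols, 1.3 µg of RNA went into each stranded mRNA library, and reads were single, of 75 bases. Per the submitters' processing notes, TopHat2, featureCounts 1.5.0-p2 and the mm10 build were used, with cutadapt 1.9.1 and DESeq2 among the other tools. Tool settings, and whether strand was used in counting, are not named there or in the labels. The authors deposited whole-number read counts per gene, not normalized (24490 genes and 92 ERCC spike-in rows, which were kept out of totals and tests at 0.268% to 0.788% of counts). Their other deposited table, of pools against scramble, holds a mean signal, log2 fold changes, a Wald score, and p-values.

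Counts were tested with edgeR 4.0.16 (R 4.3.3): TMM scaling, filterByExpr (14144 genes kept, 14062 without scramble replicate 1), and the two-sided quasi-likelihood F test. Calls are at a Benjamini-Hochberg adjusted p below 0.05 over all genes kept. All pools against scramble used 2 groups, which treats the 8 pool libraries as independent, and the other comparisons used 1 fit with 5 groups. The code was tested on simulated data in which scramble replicate 1 did not stand apart, so that test does not cover the effect of this library. Exon lengths and coordinates are from GENCODE M21 (GRCm38, the mm10 assembly), and promoter windows from RefSeq. Likeness used log2 CPM with a prior count of 2.

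The genes and lists were chosen with earlier results of these data known. All 9 genes were named; of each list, up to 3 called genes per comparison by size of change and the uncalled gene with the highest level. Bhlhe40, Fabp5 and the genes that share reads or place with a member were named after their values were seen. Replicate libraries differed by more than sampling noise (chi-square per degree of freedom at least 2.72). Intervals are standard errors from the edgeR fit: the absolute log2 fold change divided by the square root of the F statistic. They rest on a spread shared over all groups of the fit. Those for differences between pools therefore also depend on the scramble libraries. Alternatives were RLE scaling, other low-count filters, DESeq2 1.42.0, a replicate block, a fit of the mean of pools, leaving out each library or pool, a fit of the 8 pool libraries, and scaling to ERCC counts. DESeq2 without scramble replicate 1 was added after the values were seen.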

Additional observations from a re-analysis of the deposited data

Results flagged for a closer look

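Rara lay on opposite sides of the scramble libraries in different pools. Both pool 2 libraries (42.0 and 39.5 CPM) lay above them, and the 6 libraries of pools 1, 3 and 4 (28.4 to 34.1 CPM) lay below. How many of all genes do the same was not counted. The log2 fold change of 0.13 in pool 2 was not called with or without scramble replicate 1 (edgeR adjusted p = 0.611 and 0.319). With all libraries the lower values in pools 1 and 4 were not called either (0.220 and 0.213). The difference between pool 2 and the mean of the other pools was tested with edgeR (log2 difference 0.44, adjusted p = 0.0133). In that comparison 5.25% of all genes were called. That comparison was added after pool 2 was seen to stand apart, and its p restates what prompted it. The call was lost without any 1 of 5 pool libraries, and the test among all 4 pools did not call Rara (adjusted p = 0.0569).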

How the results depend on the processing

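For all pools against scramble the count was 1, with 2 under RLE scaling, 2 with no low-count filter, 1174 with DESeq2, 1649 with the replicate number as a block, 901 for the mean of pools in the 5-group fit, 1390 without both libraries of pool 2, 7 without both of pool 3, and 1 to 2336 leaving out 1 library. For pool 1 it was 273, with DESeq2 788, with the block 96, and 9 to 4044 leaving out 1 library. For pool 2 it was 1, with DESeq2 34, and 1 to 618. For pool 3 it was 1580, and 210 to 6864. For pool 4 it was 363, with DESeq2 872, with the block 151, and 17 to 4364. For any difference among pools it was 348, with DESeq2 1072, with the block 146, in the 8 pool libraries alone 6835, and 6 to 6017. For pool 2 against the other pools it was 743, with DESeq2 1279, in the 8 pool libraries alone 6692, and 111 to 6149. Among the fits that left out 1 library, the highest count came without scramble replicate 1, except for all pools against scramble, where it came without scramble replicate 3 (66 without scramble replicate 1). Only scramble had a replicate 3, so the block gave that library a term of its own. Fits with the block therefore compare the pools with scramble replicates 1 and 2 only. No sign of pairing by replicate number was seen: 0 of 10 correlations of same-numbered deviations exceeded 0.1 (−0.046 to 0.073). The labels do not say whether the numbers pair libraries. Correlations with scramble rest on its replicate 1, which stood apart, so they could hide a pairing.

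Of 1508 recomputed values for single genes, 1266 stayed the same, 157 lost a call, 52 gained one, 28 turned sign and 5 moved. A tested value stayed the same if it kept its side of the threshold and, where it had one, its direction. Crabp2 against scramble, which had no test, was compared by size. It counted as moved where its log2 fold change shifted by at least the standard deviation of its log2 CPM within groups. The sign turned only for uncalled values (log2). Leaving out 1 library, Rarg ranged from −0.0092 to 0.13 for all pools, −0.043 to 0.097 in pool 1, −0.00035 to 0.14 in pool 2, −0.074 to 0.068 in pool 4 and −0.022 to 0.053 for pool 2 against the others. Rxra ranged from −0.13 to 0.0049 for all pools and −0.0996 to 0.034 in pool 1, Aldh1a1 from −0.13 to 0.027 in pool 2, and Rarb from −0.0995 to 0.024 for pool 2 against the others. Dgat1 ranged from −0.19 to 0.14, Rdh11 from −0.19 to 0.072, Aldh1a3 from −0.052 to 0.34, Ncor1 from −0.15 to 0.46, Nrip1 from −0.10 to 0.91 and Fabp5 from −0.35 to 0.24 for all pools, and Cyp26b1 from −0.39 to 0.013 in pool 2. With the replicate block Rxra was 0.0072 for all pools and 0.033 in pool 1, Rarg −0.00738 in pool 1 and Rdh11 0.0080 for all pools. Without both libraries of pool 3 Rxra was 0.024, and without both of pool 1 Aldh1a3 was −0.025. Beside these counts, the block ended the calls of Stra6 and Btg2 in pool 1, Rara, Cyp26b1, Adh7 and Bhlhe40 in pool 3, Tbl1xr1 in pools 1 and 4, and Adh7 and Btg2 for pool 2 against the others. With no low-count filter the calls of Stra6, Btg2 and Tbl1xr1 in pool 1, Bhlhe40 in pool 3, and Adh7, Rdh5 and Btg2 for pool 2 against the others were lost (adjusted p 0.0502 to 0.0913). None of the 5 genes nearest to Crabp2 stayed among the first 5 without scramble replicate 1 (0 shared). The causes were not tested.

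Scaling to ERCC counts raised the median log2 ratio of all genes, pools to scramble, to 0.29 from 0.03 (0.03 without scramble replicate 1). Rara, Rxra and Aldh1a1 turned to 0.11, 0.21 and 0.07 and, relative to that shift, were at −0.17, −0.08 and −0.22. Without scramble replicate 1 the ERCC-scaled values were −0.17, −0.12 and −0.16, so the turn rests on that library. Crabp2 was at −0.81, or −1.10 relative to that shift. Crabp1 was too shallow for any comparison.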
